A study of Mus musculus with 10 samples.

Results

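Open chromatin was compared between brain and lung in the larger of the study's captures, in which 10 laser-cut areas of roughly 20 nuclei each were pooled to about 200 nuclei per library. These are 2 brain and 3 lung libraries, 5 of the 10 in the series, chosen by their titles. All come from wild-type C57BL/6J mice, an inbred laboratory strain, and the labels name no transgene or treatment. The other 5 libraries (2 of brain, 3 of lung) hold 50 nuclei captured singly and were used to look at the same peaks again. Nuclei were picked at random within the sections, so each library mixes the cell types of its tissue. The labels speak of technical duplicates at least, and name neither the animals, their age or sex, nor the regions of brain or lung. The p-values therefore measure only the spread between these libraries, which may be technical.

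In ATAC-seq the transposase Tn5 inserts sequencing adapters into DNA that is not wrapped in nucleosomes, and a cluster of insertions is called a peak. Here the enzyme acted on the fresh frozen section before nuclei were cut out by laser-capture microdissection (LCM). Promoters of widely used genes tend to be open in many tissues, while open sites inside and between genes tend to differ between cell types. Brain tissue holds neurons, astrocytes, which clear transmitter and potassium, and oligodendrocytes, which make myelin. Lung is rich in capillary endothelium lying against flat alveolar type 1 cells, beside surfactant-making type 2 cells, airway epithelium and mesenchyme.

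The sequences below show the bases just upstream of the annotated start of 6 genes whose promoter carried a named peak, 3 with a peak higher in brain and 3 higher in lung, so that the kind of DNA measured can be seen. They are RefSeq sequence of GRCm38.p6 (equal to mm10, the build of the files), 250 bases each, read along the strand of the gene. Capitals mark the bases inside the peak of the deposited table. Gpr37 (chr6:25689981-25690230, minus strand), Clstn3 (chr6:124464785-124465034, minus strand) and Pou3f3 (chr1:42695518-42695767, plus strand) belong to the brain peaks. Klf2 (chr8:72318812-72319061, plus strand), Cavin2 (chr1:51288876-51289125, plus strand) and Hoxa5 (chr6:52204588-52204837, minus strand) belong to the lung peaks.
Gpr37: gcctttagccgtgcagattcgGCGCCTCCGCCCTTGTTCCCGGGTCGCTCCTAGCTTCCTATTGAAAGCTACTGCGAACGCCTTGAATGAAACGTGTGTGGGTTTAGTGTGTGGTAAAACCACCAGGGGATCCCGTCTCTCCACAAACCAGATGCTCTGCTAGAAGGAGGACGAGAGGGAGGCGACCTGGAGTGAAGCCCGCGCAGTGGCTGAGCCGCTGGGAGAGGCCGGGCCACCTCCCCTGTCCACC
Clstn3: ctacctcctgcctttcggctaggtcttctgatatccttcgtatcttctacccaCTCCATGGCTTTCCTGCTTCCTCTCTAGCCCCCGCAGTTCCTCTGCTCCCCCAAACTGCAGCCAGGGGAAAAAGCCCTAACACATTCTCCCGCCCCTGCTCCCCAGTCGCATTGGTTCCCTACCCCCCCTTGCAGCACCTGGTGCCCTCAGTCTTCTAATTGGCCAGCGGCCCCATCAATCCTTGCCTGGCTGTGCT
Pou3f3: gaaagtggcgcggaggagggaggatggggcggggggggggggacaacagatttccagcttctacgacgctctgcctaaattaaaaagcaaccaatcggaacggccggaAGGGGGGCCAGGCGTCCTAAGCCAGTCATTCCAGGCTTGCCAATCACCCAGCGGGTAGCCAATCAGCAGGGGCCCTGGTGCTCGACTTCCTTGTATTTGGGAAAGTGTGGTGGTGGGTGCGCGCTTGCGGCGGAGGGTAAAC
Klf2: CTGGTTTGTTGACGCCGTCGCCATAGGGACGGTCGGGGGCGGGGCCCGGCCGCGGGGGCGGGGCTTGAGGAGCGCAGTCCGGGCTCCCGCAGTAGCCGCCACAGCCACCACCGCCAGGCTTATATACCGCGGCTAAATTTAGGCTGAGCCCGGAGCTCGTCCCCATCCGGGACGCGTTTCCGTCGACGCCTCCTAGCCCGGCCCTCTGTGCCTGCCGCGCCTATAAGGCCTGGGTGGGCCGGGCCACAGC
Cavin2: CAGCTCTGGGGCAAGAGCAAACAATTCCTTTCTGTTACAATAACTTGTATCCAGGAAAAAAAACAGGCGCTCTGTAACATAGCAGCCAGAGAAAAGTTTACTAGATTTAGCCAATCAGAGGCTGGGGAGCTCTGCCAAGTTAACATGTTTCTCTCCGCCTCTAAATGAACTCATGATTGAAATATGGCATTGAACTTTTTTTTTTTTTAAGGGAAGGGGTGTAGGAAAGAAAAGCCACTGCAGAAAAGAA
Hoxa5: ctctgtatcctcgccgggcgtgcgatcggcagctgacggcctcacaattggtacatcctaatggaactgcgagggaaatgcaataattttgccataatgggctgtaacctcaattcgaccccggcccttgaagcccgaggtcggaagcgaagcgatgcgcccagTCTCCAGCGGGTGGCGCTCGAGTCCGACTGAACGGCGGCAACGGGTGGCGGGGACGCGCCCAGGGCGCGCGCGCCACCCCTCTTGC
These 6 windows differ in base composition. The Klf2 window is 71.2% G or C with 29 CpG dinucleotides, and the Hoxa5 window 63.6% with 28. In contrast, the Cavin2 window is 40.4% with 2. The brain windows hold 16 (Gpr37), 6 (Clstn3) and 15 (Pou3f3) CpG.

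Depth differed sharply between the tissues. Reads in peaks came to 6904574 and 10973796 in brain and to 2928618, 1896166 and 4083252 in lung. The mitochondrial share of them was 94.99% ± 1.09 (SD, n = 2) in brain and 30.3% ± 7.16 (SD, n = 3) in lung, so nuclear peaks kept 398811 and 465489 reads in brain and 1366128 to 3075377 in lung. Levels are therefore scaled to 1000000 nuclear-peak reads in each library (RPM). A single read is worth 2.15 to 2.51 RPM in brain and 0.325 to 0.732 RPM in lung. Libraries of 1 tissue resembled each other more than those of different tissues: over all nuclear peaks, Pearson's r of log2(RPM + 1) was 0.716 for the brain pair, 0.816 to 0.863 for the lung pairs and 0.469 to 0.564 between tissues, as a description across peaks of unequal depth.

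The sex chromosomes also separated the 2 groups. Peaks at Eif2s3y and Uty, genes of the Y chromosome, had 9 and 7 and 12 and 5 reads in the brain libraries and 0 in each of the 3 lung libraries. Both were called higher in brain, at least 38.5-fold and 41.0-fold, counting 3 reads over the lung group as the limit that 0 reads allow. At 1 of 2 peaks of Xist, the RNA of the inactive X chromosome, the brain libraries had 1 and 2 reads and the lung libraries 45, 30 and 41 (log2 fold change, brain over lung, -2.62 ± 0.87 (SE), edgeR adjusted p = 0.0326), while the other was not called (adjusted p = 0.809, edgeR). The labels give no sex. Tissue cannot be told apart from animal or sex in any difference below. On the X chromosome 2.26% of 798 tested peaks were brain calls and 9.40% lung calls, beside 5.50% and 10.2% of autosomal peaks.

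Brain and lung differed at a large minority of the sites. Of 37249 nuclear peaks with at least 10 reads over the 5 libraries, 5808 (15.6%) passed the edgeR quasi-likelihood test at a Benjamini-Hochberg adjusted p of 0.05. Of these, 2026 (5.44%) were higher in brain and 3782 (10.2%) higher in lung. Among genes with a tested peak, 3002 of 12649 had a call, 1453 a peak higher in brain and 1706 a peak higher in lung. Called differences were large: the median log2 fold change was 2.79 for brain peaks, whose median level was 32.1 RPM in brain and 3.70 RPM in lung. For lung peaks it was -2.72, or -2.37 with the 564 peaks of 0 brain reads set to their bound, against a median level in lung of 31.7 RPM and in brain of 5.37 RPM. The median over all tested peaks was -0.16.

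The number and the split of the calls depended on scaling and on single libraries. Brain took 34.9% of the calls with TMM scaling, 44.9% with nuclear totals alone (median of all peaks -0.03), 53.8% with offsets that remove a trend with read depth (median -0.01) and 43.0% after thinning all libraries to equal reads. Leaving out brain replicate 1 left 361 brain and 961 lung calls, and leaving out brain replicate 2 left 790 and 1735. Without lung replicate 3 the counts were 1346 and 2195, and without lung replicate 2 they were 1620 and 2423. Without lung replicate 1 they rose to 2372 and 4073. With totals that include mitochondrial reads the median moved to -3.80 and 33060 peaks were called higher in lung, so all directions below hold among nuclear reads only. A model over all 10 libraries, whose 50-nuclei members vary more, called 326 and 394. In every fit that left out 1 library, 769 peaks remained called (168 brain, 601 lung), among them 63 of the 98 called peaks named below. Peaks named without a remark are among those 63. A fit without 1 brain library keeps 1 brain library, which is then assumed to vary like the lung libraries. Lung pairs resembled each other more (r of 0.816 to 0.863) than the brain pair (0.716). Adjusted p-values and calls from those fits, here and below, rest on that assumption. Among peaks with up to 50 reads in all, 10.8% were brain calls and 0.128% lung calls, and above 400 reads 2.09% and 18.1%. Lung gave 6246149 nuclear reads and brain 864300, so a peak higher in lung has more reads in all by construction. These shares therefore cannot show an effect of depth on the direction.

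**Figure D1:**
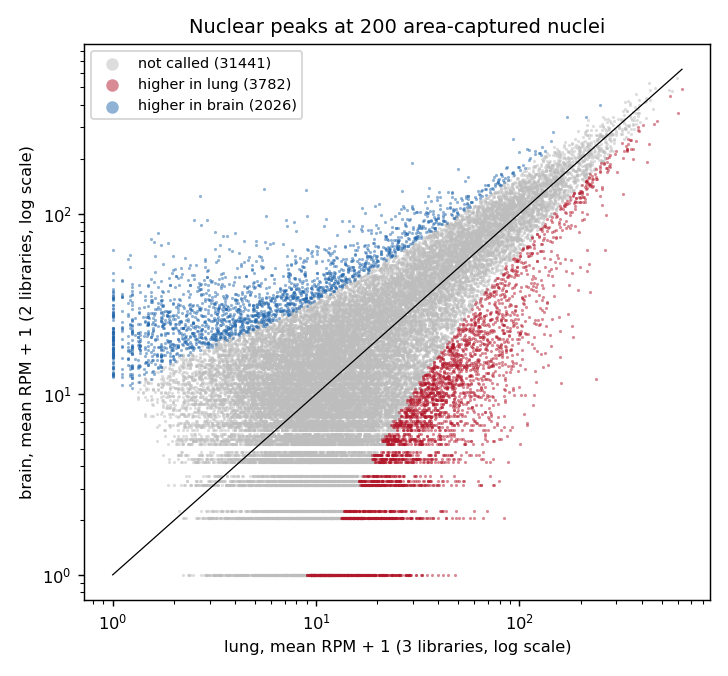
Mean level of each tested nuclear peak in lung (x axis, mean RPM + 1 over 3 libraries, log scale) and brain (y axis, mean RPM + 1 over 2 libraries, log scale), 1 point per peak. Peaks called higher in brain (2026) lie above the line of equal levels and those higher in lung (3782) below it, while the 31441 peaks not called spread widely around it.

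Where a peak lay bore on the direction. A peak was classed as gene-end when the middle of it was at most 1000 bp from a start or end of a gene, as gene-body when it overlapped the gene otherwise, as flank when a gene end lay within 5000 bp, and as away from genes beyond that. Genes here are the 21901 RefSeq genes that are protein-coding or on a list, so a peak away from genes may lie at a noncoding gene. Exons and introns were not used here. Gene-end peaks were called higher in brain in 6.27% and higher in lung in 4.12% of 13692 tested. Gene-body peaks were called in 5.40% and 12.5%, flank peaks in 3.75% and 13.5%, and peaks away from genes in 4.54% and 15.5%. Gene-end peaks thus made up 42.4% of the brain calls and 14.9% of the lung calls, beside 36.8% of all tested peaks. A promoter window (250 bases before to 50 after a RefSeq start) lay under 29.4% of brain calls and 10.3% of lung calls. Among all tested peaks it was 23.96%. Peaks away from genes made up 19.6% of brain calls and 35.7% of lung calls, beside 23.4% of all tested peaks. In both, the lung calls lay further from the share of all tested peaks than the brain calls. In every alternative tried but totals that include mitochondrial reads (23.1% and 36.7%), the gene-end share was higher for brain calls (29.8% to 50.8%) than for lung calls (8.75% to 19.9%). The share of brain calls was under the 36.8% of all tested peaks with all 10 libraries (29.8%) and with a fold floor of 2 (31.8%). Lung calls were also wider, with a median width of 251 bp. Brain calls had a median of 152 bp, near the 165 bp of all tested peaks and the 155 bp of those not called. Width moved with the direction of the calls. The part of width and of depth in the difference by position was not tested.

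**Figure D2:**
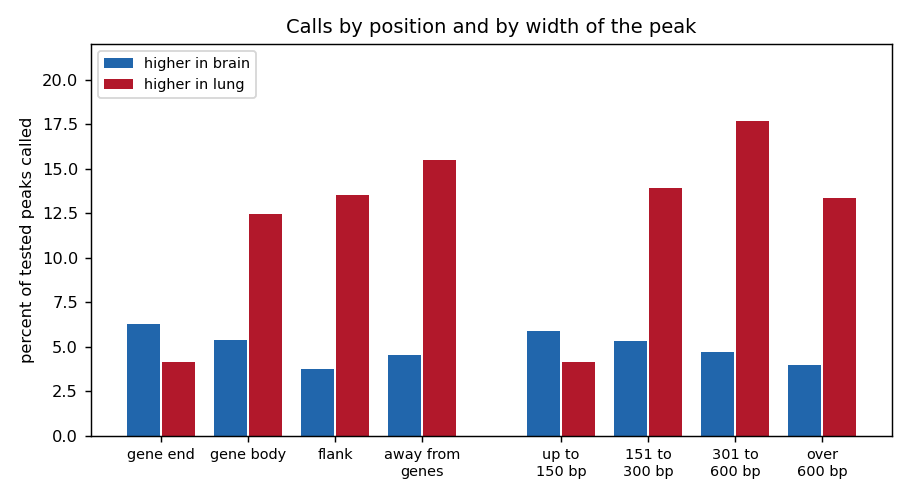
Percent of tested peaks called higher in brain or higher in lung (y axis, bars from 0), by position relative to genes and by width of the peak. Gene-end peaks are the position class with more brain calls (6.27%) than lung calls (4.12%), and peaks away from genes have the most lung calls (15.5%).

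The genes named by p on the brain side included Kcnj10, Cmtm5 and Gpr37, which are known from glia. In the sentences that follow, values are in RPM and in the order of the replicate numbers. Kcnj10, the inward rectifier potassium channel of astrocytes and other glia, had a gene-body peak (chr1:172349929-172350283) at 72.7 and 109.6 in brain and 2.22, 2.2 and 1.3 in lung. At the start of Cmtm5, a membrane protein of myelin, the peak measured 75.2 and 79.5 in brain and 0, 0.732 and 1.3 in lung, with a second gene in reach. Gpr37, a receptor of oligodendrocytes whose promoter is printed above, had 60.2 and 77.3 in brain and 0, 1.46 and 0.325 in lung. Both brain libraries lay far above all 3 lung libraries at each of these peaks. The groups did not overlap at 98.6% of all brain calls, beside 49.95% of all tested peaks. The fitted log2 fold changes were 5.47 ± 0.53 (SE) for Kcnj10 and 6.34 ± 0.64 for Cmtm5. For Gpr37, with 3 lung reads in all, the ratio of reads was 145 (95% counting interval 47.1 to 721).

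Enzymes of myelin lipids were also among the genes named by p. Fa2h, which hydroxylates the fatty acids of myelin galactolipids, had a gene-body peak at 80.2 and 55.9 in brain and 0, 0 and 2.6 in lung. Gal3st1, which sulfates them to sulfatide, had a peak at its start at 52.7 and 62.3 in brain and 0.554, 0 and 1.3 in lung, with a second gene in reach. Slc38a3, a glutamine transporter of astrocytes, had 77.7 and 64.4 in brain and 0, 0 and 1.63 in lung. Groups did not overlap at these peaks, as at 98.6% of all brain calls and 49.95% of all tested peaks, and the log2 fold changes were 5.59 ± 0.68, 5.94 ± 0.72 and 6.25 ± 0.69 (SE).

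Other genes at the top of the brain calls act in signalling, adhesion and metabolism. The lowest p belonged to a peak near the 3' end of Prkd2 (chr7:16869526-16869741), which encodes a protein kinase of the D family, at 158 and 90.2 in brain and 0, 4.39 and 0.65 in lung (log2 6.30 ± 0.54, edgeR adjusted p = 1.79e-11). Pcdh9, a protocadherin of neurons, had a peak in the gene near its start at 165 and 107 in brain and 7.2, 1.46 and 4.88 in lung (log2 4.68 ± 0.41). Bdh1, the mitochondrial enzyme that interconverts the ketone bodies, had the best-measured difference of this set at 203 and 178 in brain and 27.2, 27.1 and 31.9 in lung (log2 2.58 ± 0.27). It was open in both tissues, yet its brain libraries lay above its lung libraries. Eml2, a microtubule-binding protein, had 95.3 and 27.9 in brain and no read in any lung library, so it was at least 123-fold higher in brain. Of its brain libraries, replicate 1 was the higher. At Khdrbs2, a splicing factor of neurons, brain had 77.7 and 53.7 and lung 0, 2.2 and 0, a read ratio of 135 (95% counting interval 43.9 to 674). The rest of the 15 were Fbxo2, an F-box protein that recognizes glycoproteins (log2 5.76 ± 0.57), Amotl2 of the angiomotin family (3.87 ± 0.47), Nol4 (5.29 ± 0.64) and Tmeff2 (3.74 ± 0.45). Tmeff2 had 97.8 and 172 in brain and 7.2, 0 and 16.6 in lung, and DESeq2 did not call it (adjusted p = 0.113).

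**Figure D3:**
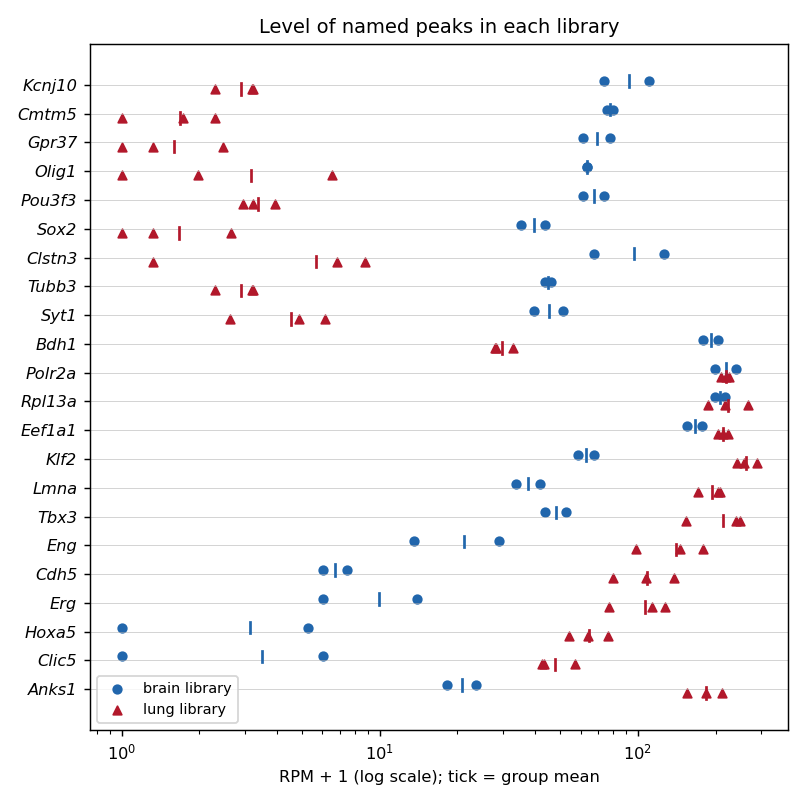
Level of 22 named peaks in each library (x axis, RPM + 1, log scale), with circles for the 2 brain libraries, triangles for the 3 lung libraries and a tick at each group mean. The brain and lung libraries stand apart at the 10 peaks higher in brain at the top and the 9 higher in lung at the bottom, while Polr2a, Rpl13a and Eef1a1 between them were not called.

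Genes that mark all neurons had more brain calls than lung calls. The counts of this and later lists stand beside 5.44% brain calls and 10.2% lung calls among all tested peaks. In either direction, 45.2% of the pan-neuronal peaks were called, beside 15.6% of all tested peaks. Of 31 tested peaks at 18 of 20 pan-neuronal genes, 12 were higher in brain and 2 in lung, with a median log2 fold change of 1.99, and 3 brain calls held in every fit that left out 1 library. The median was 1.06 with depth-trend offsets and 1.13 without brain replicate 1. Tubb3, the neuronal beta-tubulin, had a peak at its start at 42.6 and 45.1 in brain and 2.22, 2.2 and 1.3 in lung, with a second gene in reach. Uchl1, a deubiquitinase abundant in neurons, had 40.1 and 47.3 in brain and 2.22, 2.93 and 2.6 in lung. Syt1, the calcium sensor of vesicle release, had 50.1 and 38.7 in brain and 3.88, 5.12 and 1.63 in lung. As at 98.6% of all brain calls and 49.95% of all tested peaks, the groups did not overlap at these promoters. Log2 fold changes there were 4.39 ± 0.71, 3.91 ± 0.67 and 3.57 ± 0.66 (SE). Elavl2, a neuronal RNA-binding protein, had 52.7 and 73 in brain and 15, 10.2 and 4.55 in lung (log2 2.58 ± 0.50), a call lost without brain replicate 2 (edgeR adjusted p = 0.0532). In the opposite direction stood Mapt, the microtubule protein tau, with a gene-body peak at 10.0 and 6.44 in brain and 36, 49.8 and 34.8 in lung (log2 -2.42 ± 0.60), lost without either brain library (edgeR adjusted p = 0.0525 and 0.0721). Summed over the list, the level was 700.3 to 782 RPM in brain and 314 to 372 RPM in lung. In a bulk library, more cells of a type and a more open site per cell cannot be told apart, here and in every list below.

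Called in either direction were 38.3% of the synapse peaks, beside 15.6% of all tested peaks. Synapse genes were covered by 47 tested peaks at 26 of 30 genes. Of these, 16 were higher in brain and 2 in lung (median 1.15), of which 4 and 1 held in every fit that left out 1 library. Clstn3, a calsyntenin that organizes synapses and whose promoter is printed above, had 125 and 66.6 in brain and 7.76, 5.86 and 0.325 in lung (log2 4.38 ± 0.54). At Nrxn2, a neurexin of presynaptic membranes, brain had 168 and 107 and lung 28.3, 43.9 and 33.2 (log2 1.83 ± 0.30), with a second gene in reach. Grin1, the obligatory subunit of NMDA receptors, had 50.1 and 32.2 in brain and 4.43, 1.46 and 0.325 in lung (log2 4.22 ± 0.77). Libraries of the 2 tissues did not overlap at these 3, as at 98.6% of brain calls and 49.95% of all tested peaks. The Grin1 call was lost without brain replicate 1 (edgeR adjusted p = 0.0627). The postsynaptic scaffold Shank2 had 82.7 and 32.2 in brain and 8.87, 2.93 and 0.975 in lung (log2 3.66 ± 0.63), also lost without brain replicate 1 (edgeR adjusted p = 0.110). Its relative Shank3 went the other way in the gene body, at 27.6 and 15 in brain and 73.7, 93 and 98.5 in lung (log2 -2.21 ± 0.39).

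Genes of neuron subtypes were thinly covered. Only 3 of 11 excitatory neuron genes and 3 of 12 inhibitory neuron genes had a tested peak, and no peak was tested at Gad1, Gad2 or Slc17a6. Of the 6 excitatory peaks 1 was higher in brain, at Camk2a, the calcium-dependent kinase of excitatory synapses, with 45.1 and 17.2 in brain and 0, 2.93 and 2.28 in lung (log2 3.94 ± 0.88). It was lost without brain replicate 1 (edgeR adjusted p = 0.245). None of the 3 inhibitory peaks was called by edgeR or DESeq2, and 1 of them had an unadjusted p under 0.05. The excitatory list, with 16.7% of its peaks called, was near the 15.6% of all tested peaks. For the ion channel list that share was 37.5%. Ion channels gave 7 brain calls and 2 lung calls over 24 peaks (median 0.98, or 0.51 without brain replicate 1), none of which held in every fit that left out 1 library. Kcnq3, a subunit of the M-current channel, had 30.1 and 21.5 in brain and 0, 0.732 and 0.65 in lung, and without brain replicate 1 its edgeR adjusted p was 0.0828. Cacna1b and Kcna1, also called higher in brain, were not called by DESeq2 (adjusted p = 0.319 and 0.518). Cacna1b had 37.6 and 4.3 in brain and 3.32, 0 and 0 in lung. Without brain replicate 1 its peak had too few reads to be tested, and without lung replicate 3 the call was lost (edgeR adjusted p = 0.0588). By edgeR the Kcna1 call was lost in each fit without 1 library but that without lung replicate 1 (adjusted p = 0.0512 to 0.426).

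Transcription factors of the neural lineage had the largest median of any brain list. Called were 53.3% of its peaks, beside 15.6% of all tested peaks. Of 15 tested peaks at 10 of 19 genes, there were 8 brain calls and no lung call (median log2 3.34), and 4 held in every fit that left out 1 library. By DESeq2, too, no peak of the list was higher in lung. The promoter peak of Pou3f3, a POU-domain factor of cortical neurons and progenitors, measured 72.7 and 60.2 in brain and 2.22, 2.93 and 1.95 in lung. Sox2, a factor of neural progenitors and glia, had 42.6 and 34.4 in brain and 1.66, 0 and 0.325 in lung at its start. Myt1l, a repressor of non-neuronal genes, had 80.2 and 34.4 in brain and 2.22, 0.732 and 0 in lung in the gene body. All of these levels separated the tissues, as at 98.6% of all brain calls and 49.95% of all tested peaks. The log2 fold changes were 4.67 ± 0.58, 5.56 ± 0.89 and 5.79 ± 0.76 (SE). Pou3f1 had 57.7 and 53.7 in brain and 13.9, 2.93 and 7.15 in lung (log2 2.63 ± 0.53). The list summed to 367 and 509 RPM in brain and to 90.7 to 107 RPM in lung.

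Genes of oligodendrocytes, astrocytes and microglia were listed separately. Called in either direction were 40.0%, 34.8% and 6.67% of their peaks, in that order, beside 15.6% of all tested peaks. For oligodendrocytes, 7 of 20 peaks at 10 of 18 genes were higher in brain and 1 in lung (median 0.27, or 0.69 with depth-trend offsets), and 2 held in every fit that left out 1 library, at Cmtm5 and Olig1. Olig1, a lineage factor, had 62.7 and 62.3 in brain and 5.54, 0 and 0.975 in lung (log2 4.67 ± 0.65). Mag, an adhesion protein of myelin, had 17.6 and 47.3 in brain and 0, 0 and 1.3 in lung (log2 5.47 ± 0.98), and its call was lost without brain replicate 2 (edgeR adjusted p = 0.120). Mbp, the myelin basic protein, had 9 tested peaks, of which 1 was higher in brain (22.6 and 45.1 against 1.11, 5.12 and 0.325, lost without brain replicate 2, edgeR adjusted p = 0.146) and 1 higher in lung (2.51 and 6.44 against 27.7, 35.9 and 29.3, lost without brain replicate 1, edgeR adjusted p = 0.104). No peak was tested at Mog, Sox10 or Olig2. For astrocytes, there were 8 brain calls and no lung call over 23 peaks at 12 of 18 genes (median 1.29), and DESeq2 too gave no lung call. These 8 lay at 4 genes, and 4 of them held in every fit that left out 1 library. Kcnj10 had 3 of 3 tested peaks called and Ttyh1, a membrane protein of the tweety family, 3 of 4. Its named peak measured 62.7 and 85.9 in brain and 3.32, 0.732 and 3.9 in lung (log2 4.50 ± 0.55). Not called were S100b (log2 -1.99 and -0.91), Gja1 (-1.59), Fgfr3 (-0.72), Glul (0.13 and -0.61) and Slc1a2 (0.066). Peaks of Gfap (-1.33 and 2.24), Slc1a3 (2.16) and Ndrg2 (0.085 to 2.02) were not called either. No peak was tested at Aqp4 or Aldh1l1. Sox9 had 17.6 and 19.3 in brain and 1.66, 1.46 and 0.65 in lung, lost without either brain library (edgeR adjusted p = 0.141 and 0.144) and without lung replicate 3 (0.0523). The microglia and macrophage list, which both tissues can hold, had 1 call among 15 peaks (median -0.03), at Sall1, a factor of microglia and of neural progenitors. Brain had 45.1 and 53.7 and lung 0, 2.93 and 2.6 there (log2 4.52 ± 0.71).

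The genes named by p on the lung side included Anks1, Klf2 and Lmna. Anks1, an adaptor with ankyrin repeats, had a gene-body peak (chr17:28015081-28015765) at 22.6 and 17.2 in brain and 153, 182 and 211 in lung. The promoter of Klf2, the flow-responsive factor of endothelium printed above, had 57.7 and 66.6 in brain and 240.5, 258 and 288 in lung. Lmna, which encodes lamins A and C, had 32.6 and 40.8 in brain and 169.6, 206 and 204 in lung near its start. All lung libraries lay above both brain libraries, as at 99.4% of all lung calls, and the brain libraries were not at 0. The groups did not overlap, in either direction, at 49.95% of all tested peaks. The log2 fold changes, brain over lung, were -3.34 ± 0.33, -2.21 ± 0.24 and -2.52 ± 0.28 (SE), with edgeR adjusted p-values of 5.02e-10, 5.25e-09 and 1.25e-08.

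Further lung peaks concerned trafficking, the cytoskeleton and oxygen sensing. Ehd1, an ATPase of endosome recycling, had 20.1 and 15 in brain and 119, 148 and 157 in lung (log2 -3.16 ± 0.36). Sptbn1, a non-erythroid beta-spectrin, had 10.0 and 15 in brain and 118, 141 and 94.6 in lung (log2 -3.33 ± 0.40). Epas1, the hypoxia-inducible factor 2 alpha that is abundant in lung endothelium, had 2.51 and 23.6 in brain and 123, 139.8 and 128 in lung (log2 -3.37 ± 0.41). Its 3 lung libraries lay close together and its 2 brain libraries both lay below them. Cavin2, a coat protein of caveolae, had 17.6 and 23.6 in brain and 128, 121 and 143 in lung at the promoter printed above (log2 -2.79 ± 0.35). At Tmem156 a flank peak had 1 brain read and 59.8, 98.8 and 91.4 RPM in lung, a read ratio of 72.5 (95% counting interval 13.0 to 2869). The remaining peaks of the 15 lay at Atp13a2, a lysosomal polyamine transporter (log2 -3.79 ± 0.43, with a second gene in reach), Tmem140 (-3.96 ± 0.45), Pakap (-4.02 ± 0.47), Tmcc3 (-3.45 ± 0.40) and Cttnbp2nl (-2.98 ± 0.34), besides Cdh5 and Tbx3 below.

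Endothelium had the most lung calls of any list, and also the most tested peaks. In either direction 43.2% of its peaks were called, beside 47.1% of the Hox peaks and 15.6% of all tested peaks. Of 111 tested peaks at 30 of 32 genes, 47 at 20 genes were higher in lung and 1 in brain (median log2 -1.78, or -1.69 with the 4 peaks of 0 brain reads at their bound), and 13 of the lung calls held in every fit that left out 1 library. Cdh5, the cadherin of endothelial junctions, had a gene-body peak (chr8:104121776-104122454) at 5.01 and 6.44 in brain and 79.2, 138 and 107 in lung. Erg, an ETS factor of endothelium, had 5.01 and 12.9 in brain and 76.5, 113 and 126 in lung. Eng, a coreceptor for BMP ligands, had 12.5 and 27.9 in brain and 97.5, 145 and 178 in lung. At each of the 3, as at 99.4% of all lung calls, every lung library exceeded both brain libraries. Among all tested peaks, 49.95% had no overlap in either direction. The log2 fold changes were -4.33 ± 0.49, -3.64 ± 0.45 and -2.90 ± 0.37 (SE). Brain was not without these sites: the list summed to 1240 and 1299 RPM in brain and to 3161 to 4434 RPM in lung. The 1 brain call, in the body of Lmo2, rested on brain replicate 1 (75.2 and 17.2 in brain, 5.54, 14.6 and 10.4 in lung), without which its edgeR adjusted p was 0.700.

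**Figure D4:**
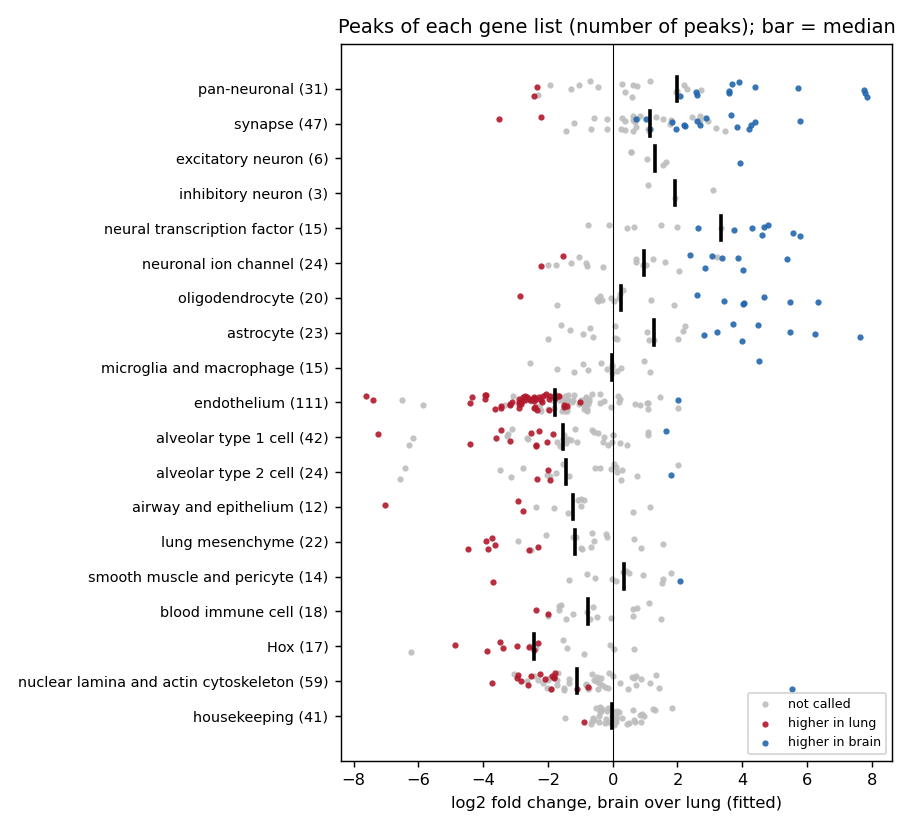
Fitted log2 fold change, brain over lung (x axis), of each tested peak of 19 gene lists (rows, with the number of peaks), colored by call, with a bar at the list median. Endothelium and Hox lists lie mostly left of 0 (medians -1.78 and -2.42), neural transcription factor and pan-neuronal lists right of 0 (3.34 and 1.99), and the housekeeping list is centered near 0.

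Alveolar type 1 cell genes had 28.6% of their peaks called in either direction, beside 15.6% of all tested peaks. For type 1 cells of the alveolus, 11 of 42 peaks at 12 of 13 genes were higher in lung and 1 in brain (median -1.53, or -1.46 with bounds). Of these, 3 lung calls, at Clic5 and Gprc5a, held in every fit that left out 1 library. There were 4 lung calls without brain replicate 2 and 1 with all 10 libraries. Clic5, a chloride channel family protein bound to the actin cortex, held 5 of these 11 among its 13 tested peaks. The first of them had 5.01 and 0 in brain and 42.1, 41.7 and 55.9 in lung, a read ratio of 21.1 (95% counting interval 5.79 to 175). Gprc5a, an orphan receptor of lung epithelium, had 17.6 and 10.7 in brain and 48.2, 65.9 and 70.9 in lung (log2 -2.28 ± 0.47). Cav1, the coat protein of caveolae that endothelium shares, had 20.1 and 4.3 in brain and 46, 38.8 and 46.2 in lung (log2 -2.03 ± 0.55), lost without brain replicate 2 (edgeR adjusted p = 0.163). Emp2 had 7.52 and 6.44 and 40.5, 30.0 and 28 (log2 -2.35 ± 0.65), lost without either brain library (edgeR adjusted p = 0.0926 and 0.0850). Aqp5, the water channel of these cells, had 1 peak called each way, and the peak higher in brain was lost in 4 of the 5 fits that left out 1 library, with edgeR adjusted p-values of 0.368 and 0.0654 without brain replicates 1 and 2 and of 0.0592 and 0.0978 without lung replicates 1 and 2. The 2 peaks of Ager, a defining gene of type 1 cells, were not called (edgeR adjusted p = 0.531 and 0.400).

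For type 2 cells, 3 of 24 peaks at 12 of 13 genes were higher in lung and 1 in brain (median -1.45, or -1.13 with bounds), near the 10.2% and 5.44% of all tested peaks, and none held in every fit that left out 1 library. The median was -0.28 after thinning, -0.49 with edgeR's own filter, -0.77 with the replicate block, -0.92 without brain replicate 2 and -0.83 without lung replicate 3. Sftpb, a surfactant protein, had 7.52 and 8.59 in brain and 27.2, 30.7 and 30.2 in lung (log2 -1.98 ± 0.65). Abca3, the lipid pump of lamellar bodies, had 5.01 and 6.44 in brain and 30.5, 28.5 and 23.1 in lung (log2 -2.35 ± 0.71). Napsa, an aspartic protease that trims surfactant proteins, had 2.51 and 17.2 in brain and 29.4, 44.7 and 35.4 in lung (log2 -1.95 ± 0.61). Lung libraries were higher at all 3, as at 99.4% of all lung calls (49.95% of all tested peaks had no overlap in either direction). DESeq2 did not call these 3 (adjusted p = 0.0718, 0.0540 and 0.0565). Without brain replicate 1 the edgeR adjusted p-values were 0.159 for Sftpb, 0.139 for Abca3 and 0.286 for Napsa; without brain replicate 2 they were 0.105 for Sftpb and 0.0831 for Abca3; without lung replicate 2 they were 0.0808, 0.0544 and 0.0922 in the same order, and without lung replicate 3 0.0886 for Sftpb and 0.0619 for Napsa. Etv5, an ETS factor named as a type 2 marker but expressed in many tissues, was higher in brain at a gene-body peak (65.2 and 77.3 in brain, 17.2, 17.6 and 20.2 in lung), lost without brain replicate 2 (edgeR adjusted p = 0.0573). No peak was tested at Sftpc, and the summed list overlapped between tissues (606.8 and 640.1 RPM in brain, 594 to 706 RPM in lung). Airway genes gave 3 lung calls among 12 peaks (median -1.23), none held in every such fit: at Krt8, a keratin of simple epithelia, the adjusted p by DESeq2 was 0.0664, at Grhl2, a factor of epithelial junctions, 0.0599, and at Cyp2f2, a monooxygenase of club cells, 0.116. By edgeR the adjusted p at Krt8 was 0.223, 0.0711 and 0.0681 without brain replicate 1, lung replicate 2 and lung replicate 3. At Grhl2 it was 0.175, 0.152 and 0.166 without brain replicates 1 and 2 and lung replicate 3, and at Cyp2f2 it was 0.0532 to 0.263 in each such fit but that without lung replicate 1. Grhl2 had no brain read and was at least 3.74-fold higher in lung.

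Of 22 peaks at 11 of 18 lung mesenchyme genes, there were 7 lung calls and no brain call (median -1.18), 2 of them in every fit that left out 1 library, and DESeq2 likewise called none higher in brain. Lung calls made up 31.8% of the list, beside 10.2% of all tested peaks. Tbx3, a T-box factor, had 42.6 and 51.6 in brain and 153, 247 and 239.7 in lung (log2 -2.31 ± 0.27). Foxf1, the forkhead factor of lung mesenchyme and capillaries, had 3 of 3 tested peaks called, the first at 0 and 6.44 in brain and 24.4, 48.3 and 66 in lung, a read ratio of 14.4 (95% counting interval 4.90 to 70.4). Tbx2 had 0 and 8.59 in brain and 31.6, 54.9 and 71.5 in lung at its named peak (log2 -3.64 ± 0.68). At 99.4% of all lung calls, beside 49.95% of all tested peaks, the libraries of the 2 tissues did not overlap. Lung exceeded brain in every library here, yet without brain replicate 1 the edgeR adjusted p was 0.0628 for the Foxf1 peak and 0.0507 for the Tbx2 peak. Tcf21, a factor of lung fibroblasts, rested on 1 brain read (ratio 12.9, 95% counting interval 2.25 to 514; DESeq2 adjusted p = 0.109), and by edgeR it was lost in each fit without 1 library but that without lung replicate 1 (adjusted p = 0.0628 to 0.182).

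Hox genes, which set position along the body axis and are silent in the forebrain, had 8 lung calls and no brain call over 17 peaks (median -2.42, or -2.36 with bounds), with none higher in brain by DESeq2 either. The called share was 47.1%, beside 10.2% of all tested peaks higher in lung. Peaks were tested at 13 of 39 genes, and the 5' part of the clusters was mostly untested. Hoxb2 and Hoxb4, also of the 3' part, were tested and not called. The calls included Hoxa3, Hoxa4, Hoxa5, Hoxb3 and Hoxb5, all from the 3' part of their clusters, and of the 8 only that at Hoxa5 held in every fit that left out 1 library. Hoxa5 had 0 and 4.3 in brain and 53.2, 63 and 75.4 in lung at the promoter printed above, with 3 genes in reach, a read ratio of 28.6 (95% counting interval 7.88 to 237). Hoxa3 had 0 and 6.44 in brain and 27.7, 43.9 and 35.8 in lung, a ratio of 10.2 (3.43 to 49.6), and its call was lost without brain replicate 1 (edgeR adjusted p = 0.0758). The list summed to 62.7 and 103 RPM in brain and to 289 to 393 RPM in lung.

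Genes of the nuclear lamina and actin cytoskeleton had 15 of 59 peaks higher in lung and 1 in brain (median -1.10). Most of those lung calls were lost in at least 1 fit that left out 1 library. Called in either direction were 27.1% of these peaks, beside 15.6% of all tested peaks. Besides Lmna, Ahnak, a giant scaffold under the plasma membrane, had 7.52 and 10.7 in brain and 57.6, 37.3 and 60.5 in lung (log2 -2.62 ± 0.55). Vim, the intermediate filament of mesenchymal and endothelial cells, had 10.0 and 23.6 in brain and 53.2, 87.1 and 61.1 in lung (log2 -2.08 ± 0.45), lost without brain replicate 1 (edgeR adjusted p = 0.0907). Myh9, a non-muscle myosin, had peaks in both directions in its body, each lost without 1 brain library: the brain peak without replicate 1 (edgeR adjusted p = 0.100) and the lung peak without replicate 2 (0.134). Immune cells of the blood gave 2 lung calls among 18 peaks (11.1%, near the 10.2% of all tested peaks called higher in lung; median -0.75), both at Cd74, the invariant chain of antigen presentation, whose named peak had 22.6 and 12.9 in brain and 63.7, 71.7 and 54.6 in lung and was lost without brain replicate 2 (edgeR adjusted p = 0.0602). That list summed to 199.8 and 256 RPM in brain and 313 to 362 RPM in lung, and no peak was tested at Cd3e, Lyz2, Itgam or S100a8. Smooth muscle and pericyte genes had 1 call each way among 14 peaks (median 0.36), near the 5.44% and 10.2% of all tested peaks called higher in brain and in lung. Both were lost without either brain library: at Cspg4 (brain) the edgeR adjusted p was 0.129 and 0.0763, and at Tpm1 (lung) 0.257 and 0.102, or 0.178 without lung replicate 1.

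Housekeeping genes gave a reference for these lists, with 2.44% of their peaks called, beside 15.6% of all tested peaks. Of 41 peaks at 17 of 20 genes, 1 was called, though not in every fit that left out 1 library (median -0.01, but 0.14 with nuclear totals alone and 0.24 with depth-trend offsets), and the list summed to 2294 and 2522 RPM in brain and 2306 to 2520 RPM in lung. Polr2a, the large subunit of RNA polymerase II, had 238 and 198 in brain and 219, 225 and 208 in lung, with a second gene in reach. Rpl13a, a ribosomal protein, had 198 and 217 and 186, 217 and 266, with 3 genes in reach, and Eef1a1, an elongation factor, 176 and 155 and 204, 222 and 212. Libraries of the 2 tissues overlapped at Polr2a and Rpl13a but not at Eef1a1, where lung was higher without passing the test (log2 -0.50 ± 0.20, edgeR adjusted p = 0.0826).

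Some genes were marked by many peaks, and those given here were picked for having the most called peaks. Their counts stand beside 10.2% of all tested peaks called higher in lung and 5.44% higher in brain. Prkce, an epsilon-type protein kinase C, had 13 of 28 tested peaks higher in lung, Tns1, which ties integrins to actin, 9 of 23, Arhgef3 9 of 21, and Casz1 and Rbpms 8 of 18 each. Of these only Tns1 had a brain call, 1 peak. The named peak of Prkce had 15 and 4.3 in brain and 72, 90.8 and 85.2 in lung (log2 -3.27 ± 0.48). That of Casz1, a zinc finger factor of heart and vessels, had 0 and 4.3 in brain and 74.3, 73.2 and 72.8 in lung, with 3 lung libraries within a narrow range (ratio 31.7, 95% counting interval 8.72 to 262). On the brain side, Enox1 had 4 of 6 peaks called and Peg3, an imprinted zinc finger gene, 3 of 5. The named Peg3 peak, with a second gene in reach, was open in both tissues at 246 and 269 in brain and 105, 97.4 and 72.5 in lung (log2 1.36 ± 0.21). These genes differ in length and in how many peaks could be tested: Prkce spans 490.1 kb and Peg3 26.6 kb. Peaks of opposite direction inside 1 gene occurred at 157 of the 3002 genes with a call. Inpp5a, a phosphatase of inositol phosphates, had 3 brain calls and 3 lung calls among 9 peaks. Its named brain peak had 27.6 and 40.8 in brain and 0, 0 and 0.65 in lung (ratio 108, 95% counting interval 27.5 to 936).

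Peaks outside the reach of any gene used for assignment included the strongest lung call. It lay at chr8:120876053-120876872, 119359 bp from the nearest gene end, that of Irf8, and had 5.01 and 17.2 in brain and 146, 253 and 310.2 in lung (log2 -4.49 ± 0.38, edgeR adjusted p = 1.79e-11). A second, at chr8:120830632-120831200 (73938 bp from Irf8), had 12.5 and 8.59 in brain and 124, 173 and 182 in lung. Another, at chr2:25110903-25111754 (15698 bp from Noxa1), had 32.6 and 38.7 in brain and 182, 261 and 218 in lung. As at nearly all called peaks (99.4% of the lung calls, beside 49.95% of all tested peaks), the libraries of the 2 tissues did not overlap at these 3. None of the 3 tested peaks assigned to Irf8 itself was called by edgeR (adjusted p = 0.440, 0.678 and 0.942). On the brain side, chr13:83744920-83745286 (77841 bp from Mef2c) had 55.2 and 92.4 in brain and 2.77, 1.46 and 3.25 in lung. Next, chr17:25518228-25518423 (20940 bp from Sstr5) had 40.1 and 75.2 and 0, 0 and 0.65, a read ratio of 184 (95% counting interval 48.5 to 1563). Last, chr14:76255119-76255408 (117740 bp from Nufip1) had 97.8 and 73 and 0, 5.12 and 0, and DESeq2 did not call it (adjusted p = 0.159). The nearest gene is that among the genes used for assignment and is given for position only.

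The sequence under the called promoters was described by short motifs searched on both strands of 300-base RefSeq windows, 679 under a peak higher in brain, 440 under one higher in lung and 8764 under a tested peak not called. None of the motifs contains another. The ETS core GGAAGT occurred in 19.0% of brain windows, 30.9% of lung windows and 30.1% of those not called (24.8% of all 21265 windows). TGANTCA, the AP-1 site, occurred in 3.53%, 9.77% and 3.83% (6.99% of all). The E-box CAGCTG occurred in 19.0%, 14.1% and 13.9% (15.6% of all), and TGACGTCA, the CRE, in 5.15%, 2.05% and 3.81% (2.24% of all). Brain windows thus held the ETS core less often, and lung windows the AP-1 letters more often, than windows of peaks not called, as counts with no test. Among the other letters, CAGATG was in 10.3%, 10.5% and 9.81% (14.6% of all), the GC box GGGCGG in 64.7%, 67.3% and 70.7% (46.2% of all), CACCC in 63.3%, 70.0% and 63.0% (59.5% of all), and the SOX letters AACAAT in 4.12%, 5.91% and 4.77% (9.05% of all). A full NFI site was in 0 of the called windows and in 7 of all. CpG content differed little between brain and lung windows (medians of 20 and 19) and was 23 in windows not called. In the printed bases inside the peaks, Gpr37 holds 1 CAGATG and 1 GC box, Clstn3 1 GC box, and Pou3f3 1 ETS core and 2 CACCC. On the lung side, Klf2 holds 2 GC boxes and 1 CACCC, Cavin2 1 AACAAT and 1 CACCC, and Hoxa5 3 CACCC. A match describes letters and not bound factors.

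Separate libraries of 50 singly captured nuclei, which share no library with those of 200, showed the same directions at most called peaks. Of 1878 brain peaks with a value there, 96.4% were higher in brain, beside 55.97% of all peaks. Of 3599 lung peaks, 88.8% were higher in lung, beside 44.0% of all. Their median log2 fold changes were 2.67 at 200 and 2.46 at 50 nuclei for brain peaks, and -2.65 and -1.27 for lung peaks. By sign, 47 of 48 named brain peaks and 48 of 50 named lung peaks matched; the exceptions were Inpp5a, Tpm1 and Hoxa4. Tested on their own, the 50-nuclei libraries gave 2 calls among 33251 peaks (0.00601%, edgeR), at Kcnj10 and Clstn3, both higher in brain. Lung replicates 2 and 3 at 50 nuclei had a read at 60.9% and 56.1% of peaks, the other libraries of that size at 90.1% to 94.3%. Without these 2 libraries, 3158 of 29850 peaks were called (10.6%), with the 1 remaining lung library assumed to vary like the brain pair. Among peaks called at 200 nuclei, 802 brain and 813 lung peaks were then called in the same direction and 2 in the opposite one. The mitochondrial share and any difference of sex or animal between the tissues recur at this size (both Y-linked peaks had reads in both brain libraries and in no lung library), so these libraries do not separate them from tissue.

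**Figure D5:**
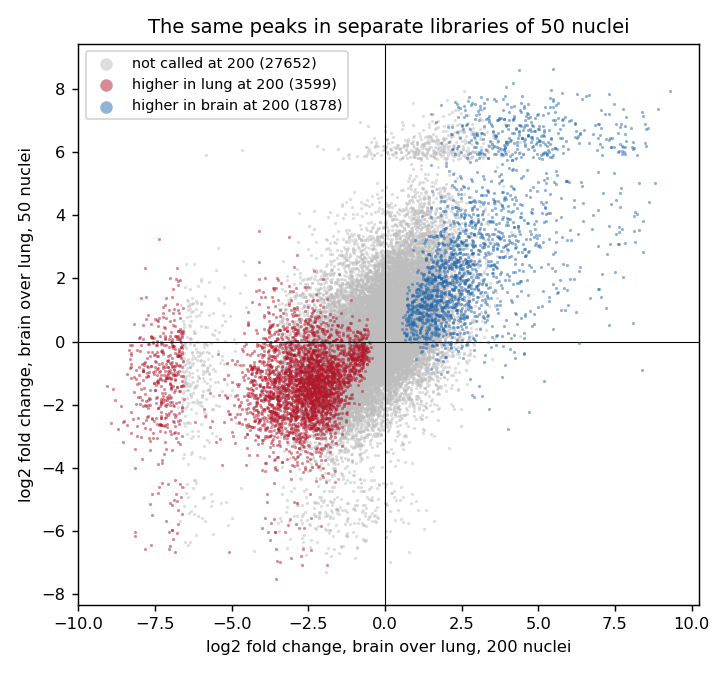
Log2 fold change, brain over lung, of each peak at 200 nuclei (x axis) and in the separate libraries of 50 nuclei (y axis), colored by the call at 200 nuclei. Of the peaks higher in brain at 200 nuclei 96.4% lie above 0 at 50 nuclei, and of those higher in lung 88.8% lie below 0.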

How the data were processed

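Per the labels' protocols, sections were tagmented in situ for 1 h at 37 °C, crosslinks were then reversed (1 h, 65 °C), and sequencing gave 50 bp paired ends. What the authors deposited is 1 table of raw read counts per peak, 37513 peaks by 10 libraries, not normalized. Per the submitters' processing notes, the build was mm10, and MACS2 2.2.7.1, Bowtie2 2.4.5, SAMtools 1.14, Picard, bcl2fastq 2.20, deepTools 3.1.3, R 4.1.0 and Trimmomatic 0.36 were used, with no roles given. How peaks were merged and reads counted, and whether duplicates were removed or reads shifted for Tn5, is not given in the sources used here. Duplicates left in the counts would add to the spread between libraries of few nuclei.

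From these counts, 2 mitochondrial peaks were set aside. The 5 libraries were fitted with edgeR 4.0.16 in R 4.3.3 (TMM, quasi-likelihood F test, at least 10 reads in all, Benjamini-Hochberg adjusted p of 0.05); the common dispersion was 0.132. Depth limits precision: 3 reads over a group, the limit that 0 reads allow, are 3.47 RPM in brain and 0.480 RPM in lung, and intervals and limits cover counting error only. Fitted fold changes of peaks with few reads in a group depend on the prior count of the fit. The genes used were the 21901 of RefSeq (GRCm38.p6) that are protein-coding or on a list. Peaks were assigned to those that they overlap or that end within 5000 bp, the nearest end deciding. This assigned 28728 of 37511 nuclear peaks, 5689 of them with more than 1 gene in reach. Coordinates are those of the deposited table. All 354 genes of the 19 lists matched by symbol. The comparison, the lists and the rule for naming peaks were chosen with earlier results of these data known. The rule took, among called peaks and with 1 peak per gene, the 15 of lowest p in each direction with an assigned gene, up to 4 per list and direction, the 5 genes with the most called peaks per direction, 3 peaks per direction with no gene in reach, and the 3 housekeeping peaks of highest level. Defining list genes may be given where not called. Some genes that the rule or the lists hold are not reported here; they remain in the counts of the lists. Alternatives were DESeq2 1.42.0, other scalings and filters, a fold floor of 2, thinning to 398811 reads, all 10 libraries, a replicate block and leaving out each library. The test was tried on simulated counts before use. Same-numbered brain and lung libraries hardly deviated together (correlations of 0.0196 and 0.0058, beside -0.0196 to 0.0168 for the other pairs). The deviations of the 2 brain libraries mirror each other, so these values are not independent.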

Additional observations from a re-analysis of the deposited data

How the results depend on the processing

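Of the 5808 calls (2026 brain, 3782 lung), DESeq2 gave 3744 (2071 lung), of which 3716 were shared with edgeR. All 10 libraries gave 720 (326 brain, 394 lung; 714 shared), and a fold floor of 2 gave 2294 (842 and 1452). Depth-trend offsets gave 2502 lung calls and thinning 2499. Totals that include mitochondrial reads gave 33151 (91 brain, 33060 lung). With the replicate block, whose numbers do not pair the libraries, there were 2698 calls (749 brain, 1949 lung). Leaving out 1 library gave 1322 to 6445 calls, 361 to 2372 in brain and 961 to 4073 in lung. The causes were not tested, and the fits of the last kind also held fewer samples. The remaining settings (no filter beyond 1 read, edgeR's own filter, nuclear totals without TMM) kept all 3 counts within 1.5 times.

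Among named peaks, 101 in all, 86 kept direction and side of the threshold with DESeq2 and 66 with all 10 libraries. With mitochondrial totals 11 reversed, to log2 -1.07 at Bdh1, -0.055 at Syt1, -1.09 at Elavl2, -1.80 at Nrxn2, -0.97 at Pou3f1, -0.39 at Kcna1, -1.54 at Lmo2, -1.94 at Aqp5, -1.87 at Etv5, -1.50 at Cspg4 and -2.30 at Peg3. The uncalled Polr2a peak (log2 -0.14) turned to 0.029 with offsets, 0.027 after thinning and 0.00070 with nuclear totals. Without lung replicates 2 and 3 at 50 nuclei, 94.5% of the brain peaks and 92.2% of the lung peaks kept their direction at that size. At 2.15 to 2.51 RPM per read in brain, lower levels in brain than a few RPM could not be measured.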
